A study of Mus musculus with 6 samples.

Results

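The 10 genes described here encode the 3 chains of fibrinogen (Fga, Fgb and Fgg), the initiator of clotting and its inhibitor (F3 and Tfpi), both endothelial receptors of the protein C pathway (Thbd and Procr), and the plasminogen activators with a receptor for one of them (Plat, Plau and Plaur). They were taken by gene symbol from a table of 17680 genes, and all 10 were found and passed the filter on low counts. Whole kidneys were compared between 3 wild-type C57BL/6 mice given LPS, a component of the outer membrane of Gram-negative bacteria, by the intraperitoneal route and 3 wild-type C57BL/6 Control mice given PBS by the same route. The mice were 6 to 8 weeks old, and RNA was taken 24 h after LPS, which was given to model septic kidney injury. The labels used here state neither the LPS dose nor the sex of the mice, nor whether a library pools animals.

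Fibrinogen is a secreted hexamer that holds a pair each of the α, β and γ chains, encoded by Fga, Fgb and Fgg. Thrombin clips it to fibrin, the mesh of a clot. Clotting starts when tissue factor (F3) binds factor VII, and it is held back by tissue factor pathway inhibitor (Tfpi) and by activated protein C, which thrombin makes while bound to thrombomodulin (Thbd), with the endothelial protein C receptor (Procr) as helper. Fibrin is removed by plasmin, which tissue-type (Plat) and urokinase-type (Plau) activators release from plasminogen, and Plaur is the cell-surface receptor of urokinase. The liver is the main source of plasma fibrinogen, its chains are acute phase genes, and the kidney tubule is known to make urokinase.

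The 3 fibrinogen genes lie next to each other in the order Fgg, Fga, Fgb on the RefSeq annotation of GRCm38.p6, a mouse assembly. The 250 bases before each annotated start are shown because these 3 genes moved together. They are RefSeq sequences of GRCm38.p6, written 5′ to 3′ on the gene's strand, at chr3:83025903-83026152 (plus strand) for Fga, chr3:83049864-83050113 (minus strand) for Fgb and chr3:83007474-83007723 (plus strand) for Fgg. Capitals mark matches to a STAT core (TTCNNNGAA), a type II interleukin 6 response element (CTGGGAA) or a C/EBP core (TTNNGNAA), searched on both strands, and no match overlapped another.
Fga: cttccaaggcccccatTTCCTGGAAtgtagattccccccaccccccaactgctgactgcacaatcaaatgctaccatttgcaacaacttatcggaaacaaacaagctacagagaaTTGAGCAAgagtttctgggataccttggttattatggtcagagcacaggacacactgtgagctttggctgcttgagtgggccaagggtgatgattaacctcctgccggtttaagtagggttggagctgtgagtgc
Fgb: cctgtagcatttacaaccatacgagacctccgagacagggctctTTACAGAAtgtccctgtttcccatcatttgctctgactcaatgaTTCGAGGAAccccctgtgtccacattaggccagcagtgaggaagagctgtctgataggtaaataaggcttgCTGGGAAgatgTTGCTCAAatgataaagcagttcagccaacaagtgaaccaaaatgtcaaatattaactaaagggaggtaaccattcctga
Fgg: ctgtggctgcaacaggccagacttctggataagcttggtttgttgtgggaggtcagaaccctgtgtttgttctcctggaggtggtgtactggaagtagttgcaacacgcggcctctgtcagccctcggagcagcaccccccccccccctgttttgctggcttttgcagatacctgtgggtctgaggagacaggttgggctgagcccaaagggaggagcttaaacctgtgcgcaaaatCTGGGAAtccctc

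The STAT core was found in Fga and Fgb, at 234 to 226 and at 162 to 154 bases before the start. Of 32851 mouse promoter windows of the same length, 7.02% held this motif. CTGGGAA was found in Fgb at 91 to 85 bases and in Fgg at 13 to 7 bases before the start, and in 9.10% of all windows. The C/EBP core was found in Fga at 135 to 128 bases and in Fgb at 206 to 199 and 80 to 73 bases, and in 36.8% of all windows. The NF-kB word (in 1.21% of all windows), the HNF1 word (in 0.00913%) and the E-box CACGTG (in 6.02%) had no match in the 3 windows. The HNF1 word was held by only 3 of the 32851 windows. Looser matches to it were not searched, so its absence says little. A match is a match of letters only, and none of the 6 words was found in all 3 windows.

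LPS replicate 2 stood apart from the other 5 libraries. The 8 transcripts of a seminal vesicle list made up 3.65% of its counts and between 0.00328% and 0.00456% of the counts elsewhere, which is 0.0898% to 0.125% of their share in LPS replicate 2. Kidney tubule markers were present in all libraries, with summed levels of 5982 to 6550.0 unscaled CPM (counts relative to the library total) in LPS and 13998 to 14782 CPM in Control libraries, and 0 of the 6 tested rose and 4 fell. The libraries held between 29097558 and 33454344 counts. Each fold change below comes from a fit of all 14219 genes that passed the filter (edgeR quasi-likelihood test, two-sided, Benjamini-Hochberg adjusted p over all 14219 genes, threshold 0.05), and the error given with a log2 fold change is its standard error (SE). Values of single libraries are in order of replicate 1, 2 and 3, as FPKM, the authors' counts scaled to gene length and library total, which can be set side by side between genes.

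Of the 10 genes, 7 rose, 2 fell and 1 did not pass the test in LPS kidneys. The background was high, with 50.5% of all genes tested called in either direction, 25.7% called higher and 24.8% called lower. CPM values of the groups did not overlap for 9 of the 10 genes, against 60.2% of all genes tested. Without LPS replicate 2 the same 7 genes rose and Plau was the 1 gene that fell.

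**Figure D1:**
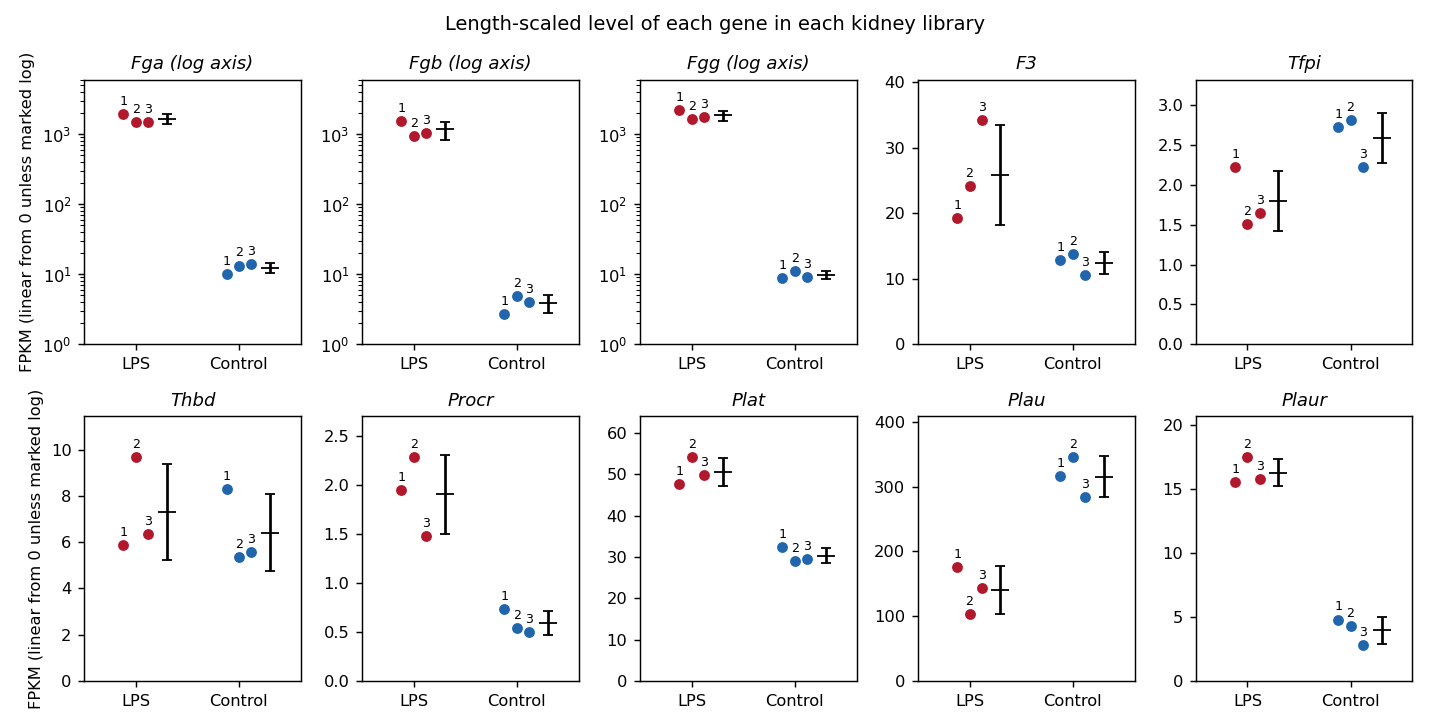
FPKM of each of the 10 genes in the 3 LPS libraries (red) and 3 Control libraries (blue), with points numbered by replicate and the mean ± SD in black. The axes of the fibrinogen chains are logarithmic and the others linear from 0. The chains lie between 933 and 2200.0 FPKM in LPS and between 2.74 and 13.8 FPKM in Control libraries, and Thbd is the gene whose groups overlap widely.

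All 3 fibrinogen chains rose in LPS kidneys, by 134-fold for Fga, 302-fold for Fgb and 193-fold for Fgg. Together they took 1.25%, 0.902% and 0.941% of all counts in the LPS libraries, against 0.00496%, 0.00672% and 0.00627% in the Control libraries. By mean FPKM, Fgg, Fga and Fgb ranked 12, 15 and 27 among 17680 genes in LPS kidneys and 5466, 4649 and 8455 in Control kidneys.

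Fga, the α chain, had 1968, 1507 and 1498 FPKM in LPS libraries, against 10, 13.3 and 13.8 FPKM in Control libraries. Its log2 fold change was 7.07 ± 0.19 (adjusted p = 5.03e-08, edgeR). Fgb, the β chain, had 1556, 933 and 1030.2 FPKM in LPS libraries, against 2.74, 4.93 and 3.99 FPKM in Control libraries. LPS replicate 1 was the highest and the groups lay far apart, with a log2 fold change of 8.24 ± 0.32 (adjusted p = 2.26e-07, edgeR). Fgg, the γ chain, had 2200.0, 1626 and 1747 FPKM in LPS libraries, against 8.74, 11.1 and 9.17 FPKM in Control libraries. Its log2 fold change was 7.59 ± 0.18 (adjusted p = 4.16e-08, edgeR). Within the LPS group all 3 chains were highest in replicate 1, and the highest library was 1.29 times the lowest for Fga, 1.64 times for Fgb and 1.33 times for Fgg in scaled CPM.

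Without LPS replicate 2 the log2 fold changes were 7.14 for Fga, 8.38 for Fgb and 7.68 for Fgg. The mean CPM of the Control libraries was 0.743% of that of the LPS libraries for Fga, 0.331% for Fgb and 0.519% for Fgg. Seminal vesicle transcripts, high in LPS replicate 2 only, stood at 0.0898% to 0.125% of that level in the 5 other libraries. The chains were high in every LPS library, so these percentages are not on the same footing. Traces of the same kind could make up larger percentages for the chains than for the seminal vesicle transcripts. The part of such traces in the Control chain counts was not tested.

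Hepatocyte markers were mixed, beside 25.7% of all genes tested called higher and 24.8% called lower. Of 12 markers 8 were tested, of which 2 rose, 3 fell and 3 did not pass, and the list summed to 53.4 to 88.4 unscaled CPM in LPS and 138 to 171 CPM in Control libraries. The lower sum rested on Ttr, the transthyretin gene, which fell to 19.6 ± 8.36 CPM in LPS kidneys, against 119.5 ± 16.9 CPM in Control kidneys (SD, n = 3 per group). Without Ttr, an alternative chosen after seeing the data, the sum was 43.3 to 65.1 CPM in LPS and 33.7 to 40.6 CPM in Control libraries, higher in LPS with no overlap. This higher sum rested mainly on Apoh, the gene of a plasma glycoprotein. Apoh rose to 22.2 ± 9.205 CPM in LPS kidneys, against 5.32 ± 0.651 CPM in Control kidneys (adjusted p = 0.000244, edgeR). Apoc3, an apolipoprotein gene, rose to 14.5 ± 3.03 CPM in LPS kidneys, against 10.2 ± 1.04 CPM in Control kidneys (adjusted p = 0.031, edgeR). The albumin gene Alb fell to 8.14 ± 0.178 CPM in LPS kidneys, against 11.05 ± 1.99 CPM in Control kidneys, and the apolipoprotein gene Apoa2 fell to 2.86 ± 0.0589 CPM in LPS, against 4.62 ± 0.370 CPM in Control kidneys. Over the 3 libraries of a group the liver enzymes Cps1, Tat, Tdo2 and Cyp2c29 had 2, 6, 4 and 2 counts in LPS and 10, 5, 6 and 6 counts in Control libraries, and no marker of the list was at 0 in all libraries. The part of hepatocyte transcripts in the fibrinogen values was not tested.

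Of the genes beside the fibrinogen cluster, the 2 that passed the filter did not rise. Lrat, a retinol acyltransferase gene beside Fgg, fell to 1.43 ± 0.530 CPM in LPS kidneys, against 3.82 ± 0.827 CPM in Control kidneys, a log2 fold change of -1.42 ± 0.33 (adjusted p = 0.00667, edgeR). Plrg1, a splicing factor gene beside Fgb, did not pass (34.0 ± 2.39 CPM in LPS against 30.4 ± 3.17 CPM in Control kidneys, adjusted p = 0.197, edgeR).

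The chain ratios of the groups lay apart, in a design too small for an exact test to pass 0.05. Of the summed FPKM of the chains, Fgb made up 24.7% ± 2.19 in LPS and 14.8% ± 2.01 in Control kidneys (SD, n = 3 per group). Fga made up 35.5% ± 1.40 in LPS and 47.7% ± 3.06 in Control kidneys, and Fgg made up 39.8% ± 1.23 in LPS and 37.5% ± 3.32 in Control kidneys. The Fgg share therefore differed by less than the spread of the Control libraries.

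The ratio of Fgb to Fgg was 0.707, 0.574 and 0.590 in LPS libraries, against 0.314, 0.443 and 0.434 in Control libraries. Every LPS library lay above every Control library, and the mean log2 ratio differed by 0.66, LPS minus Control. The ratio of Fga to Fgg was 0.894, 0.927 and 0.857 in LPS libraries, against 1.14, 1.20 and 1.502 in Control libraries. Every LPS library lay below every Control library, with a mean log2 difference of -0.51. Both differences had p = 0.1 in an exact two-sided permutation test, the smallest value that 3 against 3 libraries can give, and p = 0.1 after Benjamini-Hochberg adjustment over the 4 ratios tested in all. These ratios rest on the gene lengths in the authors' FPKM, 2649 bases for Fga, 1705 for Fgb and 2112 for Fgg, which set the level of a ratio but not its difference between groups. The Control values rest on 136 to 261 counts of Fgb per library. The part in them of traces like those of the seminal vesicle transcripts was not tested.

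**Figure D2:**
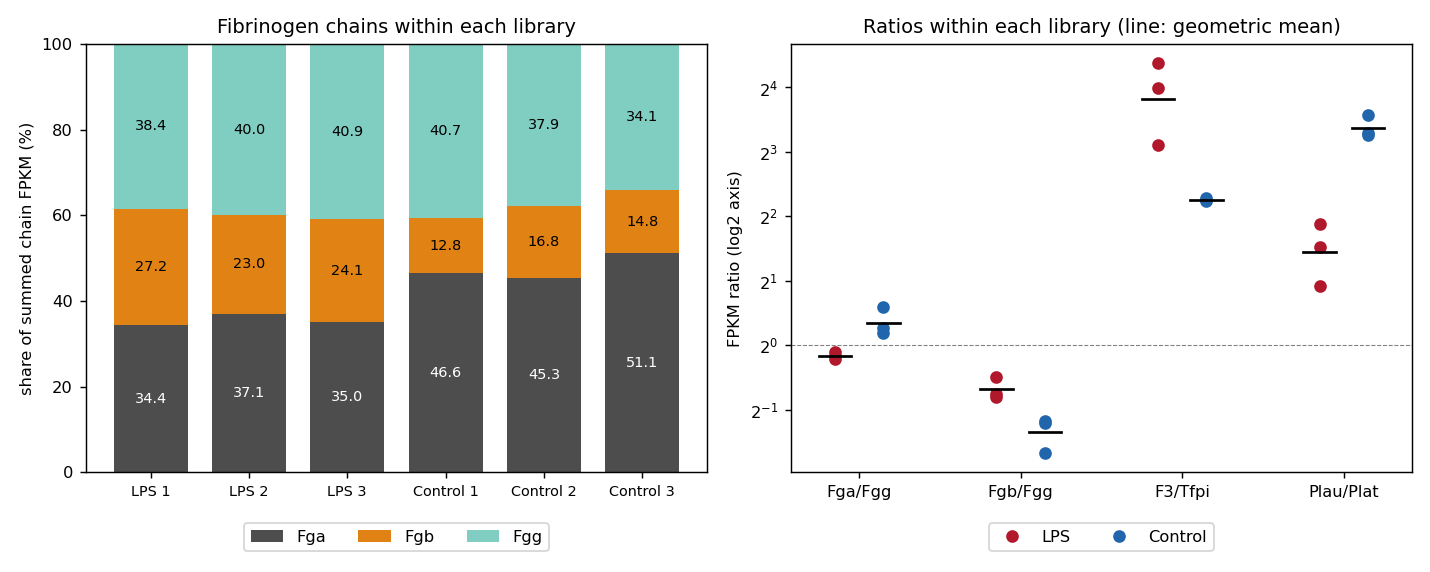
Left, share of each fibrinogen chain in the summed chain FPKM of each library, in percent. Right, 4 FPKM ratios on a log2 axis, with LPS libraries in red, Control libraries in blue and the geometric mean as a line. The Fgb share is 23.0% to 27.2% in LPS and 12.8% to 16.8% in Control libraries, and none of the 4 ratios overlaps between groups. For F3 to Tfpi and Plau to Plat this follows from the levels of the single genes.

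At the start of the clotting cascade, F3 rose and Tfpi was lower in LPS kidneys, the second with a call that rested on single libraries. F3, tissue factor, had 19.2, 24.1 and 34.2 FPKM in LPS libraries, against 12.9, 13.7 and 10.5 FPKM in Control libraries. All LPS libraries lay above all Control libraries, with a 2.10-fold change (log2 fold change 1.07 ± 0.20, adjusted p = 0.00193, edgeR). LPS replicate 3 was the highest, and without it the log2 fold change was 0.81 (adjusted p = 0.00258, edgeR).

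Tfpi, which blocks tissue factor with factor VII, had 2.23, 1.51 and 1.65 FPKM in LPS libraries, against 2.73, 2.82 and 2.23 FPKM in Control libraries. LPS replicate 1 and Control replicate 3 were level in FPKM, at 2.231 and 2.230, and stood at 8.97 and 9.11 CPM after scaling. The log2 fold change was -0.52 ± 0.18 (adjusted p = 0.0352, edgeR). The adjusted p (edgeR) was 0.114 when LPS replicate 2 was left out and 0.0953 for LPS replicate 3, and it was 0.0775 and 0.122 for Control replicates 1 and 2, so the call was lost in these 4 fits. F3 stood above Tfpi by 8.62, 16.0 and 20.7 times in LPS libraries, against 4.74, 4.87 and 4.72 times in Control libraries. The Control ratios lay close together and the LPS ratios were spread, and the mean log2 difference was 1.57 (exact permutation p = 0.1, two-sided, the smallest possible). The separation of this ratio follows from the levels of F3 and Tfpi given above.

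Of the pair of endothelial receptors of the protein C pathway, Procr rose and Thbd did not pass the test. Procr, the endothelial protein C receptor, had 1.95, 2.29 and 1.48 FPKM in LPS libraries, against 0.734, 0.545 and 0.500 FPKM in Control libraries. The groups did not overlap, and the gene rose 3.24-fold (log2 fold change 1.70 ± 0.26, adjusted p = 0.00067, edgeR). It is a low gene, with 461 counts over the LPS and 133 over the Control libraries, and on the log2(FPKM + 1) scale, which shrinks low genes, its change was 0.86.

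Thbd, thrombomodulin, had 5.88, 9.70 and 6.37 FPKM in LPS libraries, against 8.32, 5.35 and 5.57 FPKM in Control libraries. The groups overlapped, with LPS replicate 2 and Control replicate 1 each high in their group. The log2 fold change was 0.21 ± 0.21, with a 95% interval of -0.28 to 0.69 (adjusted p = 0.449, edgeR). It was -0.05 without LPS replicate 2 and 0.41 without Control replicate 1 (adjusted p = 0.850 and 0.138, edgeR), so neither direction held.

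Endothelial markers were on balance lower, beside 25.7% of all genes tested called higher and 24.8% called lower. Of 12 tested, 0 rose and 6 fell, with summed levels of 446 to 562 unscaled CPM in LPS and 623 to 855 CPM in Control libraries, and none was at 0. Pecam1, an adhesion molecule of endothelium, did not pass, at 65.8 ± 9.70 CPM in LPS against 61.9 ± 11.3 CPM in Control kidneys. In whole tissue, fewer cells of a type and less RNA per cell cannot be told apart, and the part of endothelial cell number in the values of Thbd, Procr and Tfpi was not tested.

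The plasminogen activators went in opposite directions. Plat, the tissue-type activator, had 47.7, 54.2 and 49.7 FPKM in LPS libraries, against 32.4, 29.0 and 29.5 FPKM in Control libraries. Both groups were tight and did not overlap, and Plat rose 1.68-fold (log2 fold change 0.75 ± 0.08, adjusted p = 9.16e-05, edgeR). Plau, the urokinase-type activator, had 177, 103 and 144 FPKM in LPS libraries, against 317, 346 and 284 FPKM in Control libraries. It was the highest of the 10 genes in Control kidneys, and in LPS kidneys it stood below the 3 fibrinogen chains and above the other 6. Plau fell by 1.15 ± 0.17 on the log2 scale (adjusted p = 0.000564, edgeR), and by 0.97 without LPS replicate 2, its lowest library.

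Plau stood above Plat by 3.70, 1.89 and 2.89 times in LPS libraries, against 9.76, 11.9 and 9.6 times in Control libraries. Every LPS library lay below every Control library, with a mean log2 difference of -1.93 (exact permutation p = 0.1, two-sided, the smallest possible). Plau was lower and Plat higher, each without overlap, so this separation and its p follow from those results. The fall of Plau came beside a fall of 4 of the 6 kidney tubule markers, while Umod and Aqp2 did not pass. Of all genes tested, 24.8% were called lower. The summed levels given above rest largely on Umod. Without Umod the sum was 1643 to 2254 unscaled CPM in LPS and 9445 to 10536 CPM in Control libraries. The part of the fall of tubule markers in the Plau value was not tested.

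Plaur, the urokinase receptor, had 15.6, 17.5 and 15.8 FPKM in LPS libraries, against 4.81, 4.31 and 2.79 FPKM in Control libraries. The LPS libraries lay within 1.14 times of each other in scaled CPM and well above the Control libraries, and Plaur rose 4.14-fold (log2 fold change 2.05 ± 0.18, adjusted p = 2.21e-05, edgeR). The receptor thus rose in kidneys where its ligand Plau fell.

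Neutrophil markers rose, and monocyte and macrophage markers were split. Of 12 neutrophil markers 9 were tested and all 9 rose, with summed levels of 2813 to 4458 unscaled CPM in LPS and 16.9 to 20.9 CPM in Control libraries. Most of the LPS sum was Lcn2 at 3551 CPM, a gene that injured tubules also express. Without Lcn2 the sum was 78.3 to 123 CPM in LPS and 3.14 to 4.399 CPM in Control libraries. The calprotectin genes S100a8 and S100a9 averaged 28.0 ± 5.70 and 35.7 ± 6.02 CPM in LPS kidneys, against 0.845 ± 0.185 and 1.16 ± 0.290 CPM in Control kidneys. The granule gene Ngp averaged 13.4 ± 5.10 CPM in LPS kidneys, against 0.111 ± 0.165 CPM in Control kidneys. Retnlg and Mmp8 rose by log2 fold changes of 6.08 and 6.00, with 532 and 503 counts over the LPS and 7 counts each over the Control libraries. Ly6g and Mpo were low, with 4 and 6 counts over the LPS and 2 and 0 counts over the Control libraries.

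Of 12 monocyte and macrophage markers 5 rose, 4 fell and 3 did not pass, beside 25.7% of all genes tested called higher and 24.8% lower. Cd68, Itgam, Ly6c2, C1qa and C1qb rose, and Csf1r, Cx3cr1, Ccr2 and Mrc1 fell. The list summed to 222 to 261 unscaled CPM in LPS against 149.7 to 249.7 CPM in Control libraries, which overlapped. Without Csf1r, its highest gene, it summed to 191.9 to 217 CPM in LPS and 94.6 to 178 CPM in Control libraries, and none of the list was at 0. The part of leukocytes in the Plaur and F3 values was not tested.

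**Figure D3:**
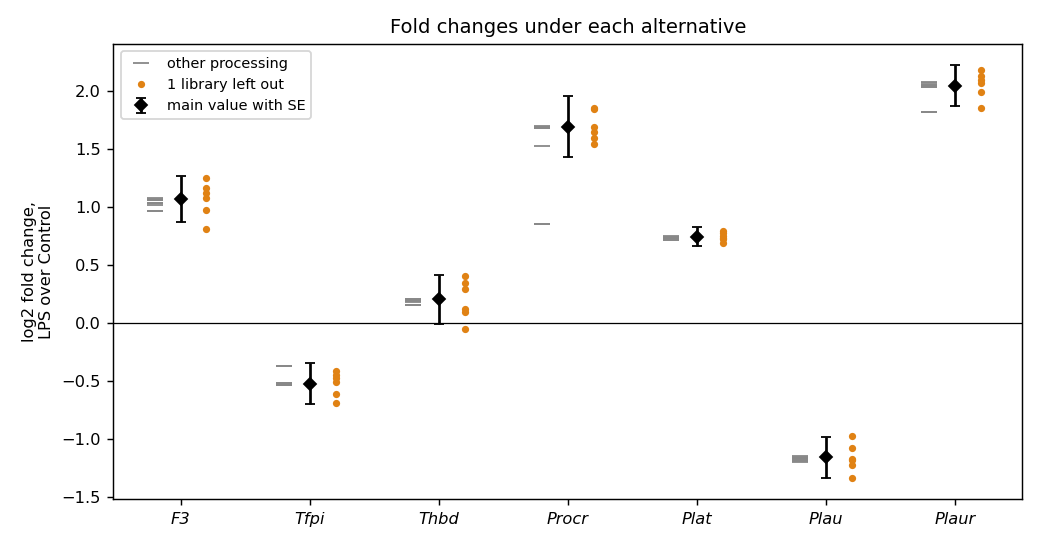
Log2 fold change, LPS over Control, of the 7 genes that are not fibrinogen chains: the main value with its SE (diamond), values under other processing (grey dashes) and values with 1 library left out (orange points). Thbd spans 0, from -0.05 to 0.41 with 1 library left out, and each of the other 6 genes keeps its direction.

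The other genes of the clotting cascade were counted from lists. Beside the counts of each list here and below, 25.7% of all genes tested were called higher and 24.8% lower. Of 14 clotting factor and contact system genes 13 were in the files and 10 tested, of which 3 rose, 3 fell and 4 did not pass. The list's median log2 fold change was -0.05, against 0.01 over all genes tested, and it changed sign between alternatives. F10, the gene of factor X, rose to 2.08 ± 0.478 CPM in LPS kidneys, against 0.164 ± 0.0650 CPM in Control kidneys (log2 fold change 3.63 ± 0.42). Kng1, a kininogen gene, rose by a log2 fold change of 2.93 ± 0.40, and its close copy Kng2, at 373 ± 55.1 CPM in LPS against 322 ± 18.1 CPM in Control kidneys, did not pass. Both values are uncertain, since counting may split reads between the copies.

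The A and B subunits of factor XIII, which crosslinks fibrin, moved in opposite directions. F13a1, the enzyme subunit, rose to 6.97 ± 0.670 CPM in LPS kidneys, against 1.28 ± 0.654 CPM in Control kidneys (log2 fold change 2.43 ± 0.32). F13b, the carrier subunit, fell to 64.7 ± 3.65 CPM in LPS kidneys, against 185 ± 15.5 CPM in Control kidneys (log2 fold change -1.51 ± 0.09). F8, the gene of factor VIII, and Klkb1, plasma prekallikrein, fell, with log2 fold changes of -2.26 ± 0.17 and -1.78 ± 0.32. For F10, Kng1, F13a1, F13b, F8 and Klkb1 the adjusted p ranged from 2.54e-06 to 0.00167 (edgeR). Vwf, von Willebrand factor of endothelium and platelets, had 5.62, 3.28 and 1.23 CPM in LPS libraries, against 9.36, 5.37 and 6.22 CPM in Control libraries, and did not pass (adjusted p = 0.0831, edgeR). F7, F9 and F12 were below the filter, with 5, 4 and 3 counts over the LPS and 0 counts over the Control libraries.

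Of 9 anticoagulant genes 7 were tested, of which 2 rose, 4 fell and 1 did not pass, with a median log2 fold change of -0.39. Serpina10, the protein Z-dependent inhibitor of factor X, rose to 68.0 ± 11.5 CPM in LPS kidneys, against 1.84 ± 0.981 CPM in Control kidneys (log2 fold change 5.21 ± 0.28, adjusted p = 1.21e-06, edgeR). Proz, the gene of protein Z itself, fell to 0.617 ± 0.169 CPM in LPS kidneys, against 10.7 ± 1.04 CPM in Control kidneys (log2 fold change -4.10 ± 0.24, adjusted p = 2.07e-06, edgeR). The inhibitor and its cofactor thus went in opposite directions. Proc, protein C, fell by 1.16 ± 0.11 on the log2 scale, and Pros1, protein S, its cofactor, rose by 1.497 ± 0.11 (adjusted p = 4.83e-05 and 7.52e-06, edgeR). Serpinc1, antithrombin, averaged 0.412 ± 0.255 CPM in LPS kidneys, against 1.03 ± 0.356 CPM in Control kidneys, and its groups overlapped. Its adjusted p was 0.0496 (edgeR) and 0.0563 with DESeq2, and ranged from 0.0128 to 0.176 over the alternatives.

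In the plasminogen system, the plasmin inhibitor Serpinf2 fell and the plasminogen receptor genes S100a10 and Anxa2 rose. Of 11 genes of this list 9 were tested, of which 5 rose, 2 fell and 2 did not pass, with a median log2 fold change of 0.67, which was 0.32 without LPS replicate 1 and 0.18 without LPS replicate 2. Serpine2, protease nexin 1, rose by 1.53 ± 0.36, and by 0.92 without LPS replicate 2, whose level of 114 CPM lay above the 48.3 and 39.6 CPM of LPS replicates 1 and 3. S100a10, a plasminogen receptor subunit with Anxa2, rose by 1.92 ± 0.11 and Anxa2 by 1.00 ± 0.14. Serpinf2, α2-antiplasmin, and Hrg, a plasma protein that binds plasminogen, fell, with log2 fold changes of -1.33 ± 0.13 and -2.96 ± 0.37. The adjusted p of Serpine2, S100a10, Anxa2, Serpinf2 and Hrg lay between 2.05e-06 and 0.00667 (edgeR). Plg, plasminogen, was below the filter, with 17 counts over the LPS and 40 over the Control libraries.

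The thrombin and protease receptors tested, F2r and F2rl1, rose by log2 fold changes of 0.84 ± 0.18 and 1.06 ± 0.08 (adjusted p = 0.00365 and 7.12e-06, edgeR). The other 2 receptors of that list, F2rl2 and F2rl3, were below the filter, with 2 and 34 counts over the LPS and 7 and 16 counts over the Control libraries. Of 11 platelet markers 4 were tested, of which 1 rose and 2 fell, with summed levels of 18.8 to 29.2 unscaled CPM in LPS and 9.57 to 11.6 CPM in Control libraries. The gene that rose, Itgb3, an integrin subunit that binds fibrinogen and is not restricted to platelets, averaged 19.4 ± 5.71 CPM in LPS kidneys, against 1.52 ± 0.493 CPM in Control kidneys. Without Itgb3 the list summed to 5.12 to 6.00 CPM in LPS and 7.94 to 10.6 CPM in Control libraries. Gp9 and Gp5 of the platelet von Willebrand factor receptor had 3 and 5 counts over the LPS and 14 and 4 counts over the Control libraries, and none of the 11 was at 0 in all libraries.

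**Figure D4:**
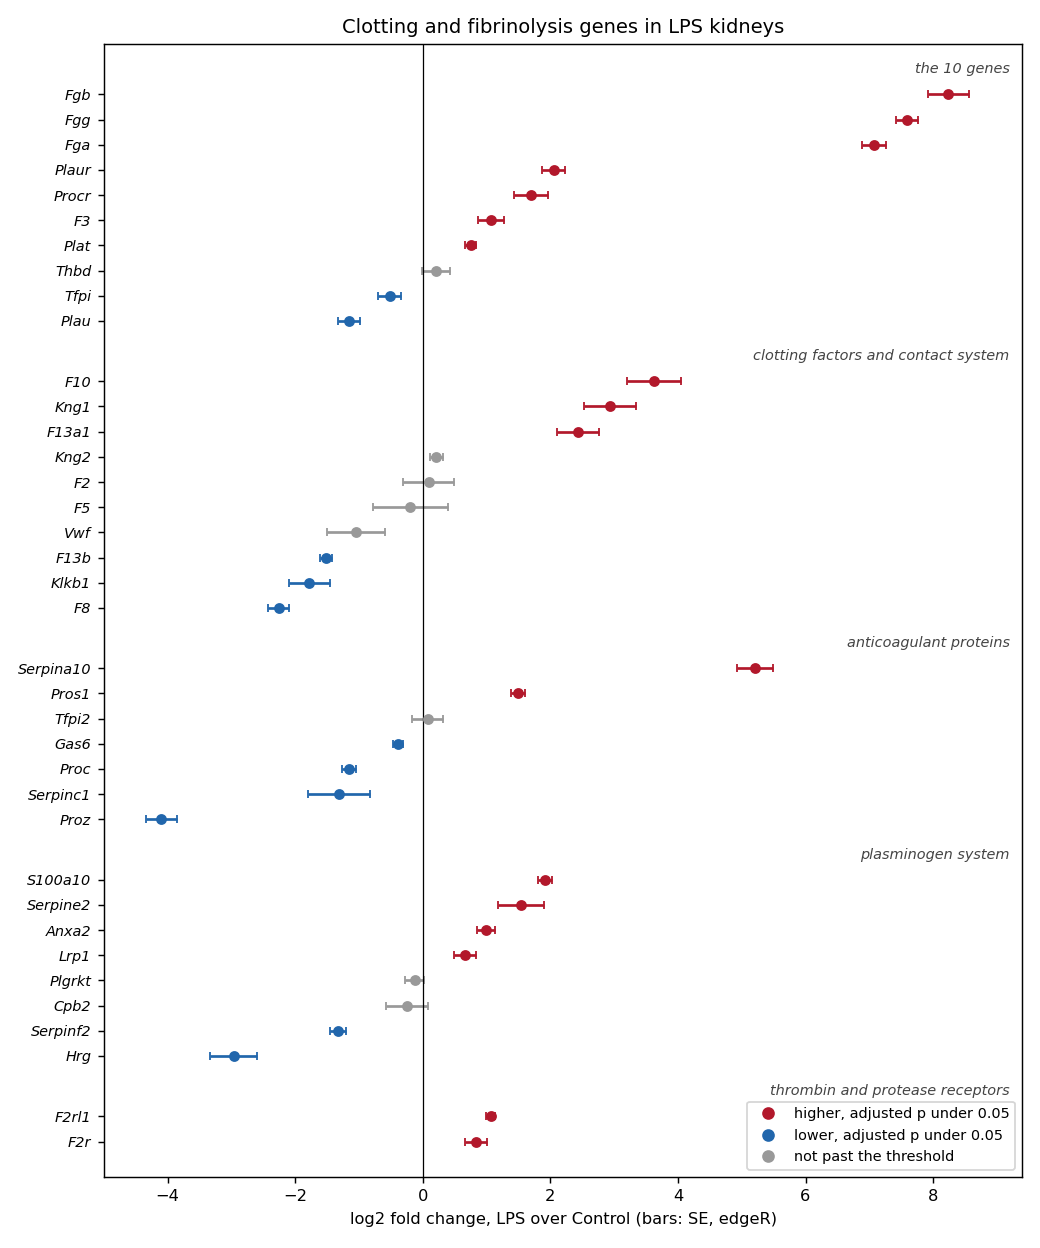
Log2 fold change with SE, LPS over Control, of tested genes of clotting and fibrinolysis, grouped by list (red, higher; blue, lower; grey, not past the threshold). The fibrinogen chains lie at 7.07 to 8.24, and outside them Serpina10 at 5.21 is the highest and Proz at -4.10 the lowest of the genes plotted.

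Likeness to other genes was measured as the root mean square difference between centred log2 CPM profiles over the 6 libraries, among genes with a mean of at least 10 CPM. The 5 genes closest to the mean profile of the fibrinogen chains were Havcr1 (0.24), Saa3 (0.29), Lcn2 (0.41), Cxcl1 (0.42) and Serpina3m (0.54). Close to Plaur were Psmb10 (0.14), Bst2, Tnfrsf1b and Capg (each 0.16). The closest to Thbd were Kdr (0.13), Bst1 (0.13), Tpm2 (0.14), Flt1 (0.15) and Plpp1 (0.15). The differences are in log2 units, and for the fibrinogen chains and Plaur the profiles mostly hold the step between the groups.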

How the data were processed

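Total RNA of 3 LPS and 3 Control kidneys was taken with TRIzol and made into libraries with the VAHTS Universal V6 kit, per the labels. For each library the deposited values are raw counts and FPKM by gene symbol. The submitters' processing notes name R 3.2.0, DESeq2, SAMtools, HTSeq and HISAT2 without their roles. The genome build, annotation and strand setting behind the counts were not given in the sources used. The deposited FPKM equalled the count divided by a whole-number length and the library total in 106077 of 106080 values, within a relative tolerance of 1e-06.

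The whole count table was fitted by edgeR 4.0.16, run in R 4.3.3 (filterByExpr, minimum count 10 and total 15, TMM factors, quasi-likelihood), and 3461 genes were filtered out. The fit was tested on simulated data, where it recovered 37.3% of 1.5-fold, 85.1% of 2-fold and 97.0% of 4-fold changes. Small changes can thus be missed. An SE is the size of the log2 fold change over the root of its F statistic. CPM is TMM-scaled unless called unscaled. Ratios were tested by exact permutation (scipy 1.17.1). Alternatives used DESeq2 1.42.0 and limma 3.58.1, among others given below.

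The genes and lists were chosen with earlier results of these data known. Named list genes are the 3 most changed per direction among those called, and others are given as examples chosen after their values were seen. Replicate pairs differed by at least 11.1 in chi-square per degree of freedom. The labels do not say more about how replicates were taken, so p-values measure the spread between these samples. They state no pairing of same-numbered LPS and Control libraries, and the main fit used none. F11 was not analysed here, and some genes that the naming rule picks are not reported here.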

Additional observations from a re-analysis of the deposited data

How the results depend on the processing

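With 1 library left out, 1 to 2 of the 10 genes were called lower and 7 were called higher. Tfpi ranged from -0.69 to -0.41 (log2 fold change) and lost its call in 4 of these 6 fits, in which its adjusted p lay between 0.0775 and 0.122 (edgeR), and Thbd ranged from -0.05 to 0.41, turning to -0.049 without LPS replicate 2. The other 8 genes kept direction and call under each alternative run: DESeq2, limma-voom, RLE factors, plain library sizes, no filter or filters of 1 CPM or 1 FPKM on the mean, limma on log2 FPKM with 1 or 0.1 added, leaving out seminal vesicle and other single-library transcripts, and a replicate block. The 4 ratios kept their direction under added FPKM, plain counts, leaving out libraries and a sign-flip over same-numbered pairs. Among all genes, 6087 to 7214 genes were called, against 7185. The correlation of deviations between same-numbered libraries was 0.05, -0.05 and 0.00, within the -0.09 to 0.11 of LPS and Control libraries with unlike numbers. It cannot show whether same-numbered libraries share a batch. With the replicate block 6745 genes were called, with 7 of the 10 genes higher and 2 lower. Among listed genes, Serpinc1 lost its call in 7 alternatives, and its log2 fold change was -1.94 without LPS replicate 1. The anticoagulant median was 0.08 with no filter, and with the FPKM filter 1 clotting factor gene was higher and 1 lower. Low genes such as Procr, F10 and Plg are limited by their counts.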
